A study of Homo sapiens with 4 samples.

Results

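The interferon-stimulated genes described here are 41 human genes that cells switch on when interferon reaches them. They were chosen by name, each count row being taken by its Ensembl ID, and 41 of 41 were found among the 60614 gene IDs of the count tables. Of the 41, 36 had enough reads to be tested, among 17539 tested genes in all. RNA-seq libraries came from DU145, an epithelial cell line long grown from a human prostate cancer. The F133V group had 2 libraries of cells with the genotype SPOP-F133V, and the wild-type group had 2 libraries of cells with wild-type SPOP. Both groups were grown in the same medium and neither label names any treatment, interferon included. SPOP is the part of a CUL3 ubiquitin ligase that binds the proteins to be tagged, and F133V replaces a phenylalanine in its substrate-binding domain. Whether the F133V line is a clone, a pool or a line with added SPOP is not in the labels, nor is whether the wild-type line was given SPOP. An effect of the mutation and an effect of how either set of cells was made therefore cannot be told apart. The labels also leave out whether replicates are separate cultures, and the p-values therefore cover the spread of these libraries alone, part or all of which may be technical.

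Interferons of type I and type III bind receptors whose kinases JAK1 and TYK2 phosphorylate STAT proteins, STAT2 among them. STAT2 and IRF9 act in a transcription factor that binds the interferon-stimulated response element (ISRE) in promoters, while interferon gamma acts mainly through a different element, GAS. The induced proteins sense or destroy viral RNA, block virus entry and release, conjugate the ubiquitin-like protein ISG15, or feed back on the pathway. Epithelial tumour cells express many of these genes at a low level without added interferon.

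Depth was similar in the 4 libraries, from 35173245 to 39642063 reads in genes. SPOP mRNA was at 1171.2 and 1150.6 CPM, the reads in a gene after scaling for depth, in F133V cells, against 843.5 and 906.0 CPM in wild-type cells, and these counts hold mutant and wild-type transcripts together. Across all genes the fold change followed transcript GC content, with a rank correlation of 0.73 over 11766 genes. The same correlation was 0.77 between F133V replicates 2 and 1 and -0.07 between wild-type replicates 2 and 1, so the F133V libraries also differed from each other along GC content. For this reason every fold change is given from 2 fits, one without and one with an offset for GC content and transcript length. The offset also removes any genotype difference that follows GC content, and that cannot be told apart from a library difference with these 4 libraries. It was estimated from these same libraries and entered as known, so p-values with the offset leave out its uncertainty. Markers of the labelled cell type were high, with 6 epithelial genes summing to 2438.0 and 2654.9 CPM in F133V cells and 1984.8 and 1977.5 CPM in wild-type cells. Of 6 luminal prostate genes of the androgen axis, summing to 31.9 and 28.5 CPM in F133V cells and 33.2 and 33.7 CPM in wild-type cells, the defining KLK2 and KLK3 were at 0 in every library. Plasmacytoid dendritic cell markers, from the blood cells that make the most interferon, had 4 of 4 genes at 0 reads in every library. One of them, IL3RA, lies in a region that chromosomes X and Y share. Reads with several alignments were not counted, so its 0 may come from the counting. Hematopoietic markers summed to 2.81 and 3.43 CPM in F133V cells and 1.68 and 2.13 CPM in wild-type cells, of which CD14 made up most and CD3E and MS4A1 were at 0. The 7 fibroblast markers summed to 8.04 and 8.39 CPM in F133V cells and 6.44 and 6.75 CPM in wild-type cells, with 2 at 0. The 4 endothelial markers summed to 0.817 and 1.11 CPM in F133V cells and 0.535 and 0.280 CPM in wild-type cells. All 6 epithelial markers rose in both fits, and of the hematopoietic, fibroblast and endothelial markers 3 did: VWF and KDR of the endothelial list, by 2.07 and 1.28 without the offset, and ITGAM of the hematopoietic list, by 1.30. The part of these markers in the results was not tested.

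The promoters below carry the element through which the pathway acts, and are shown to set genes with the largest rises beside genes with the largest falls. Each is 260 bases of RefSeq sequence on GRCh38.p14, 5′ to 3′ on the gene's own strand, with 250 bases before the transcription start and 10 from it. Capitals mark the ISRE core, GAAANNGAAA on either strand. The first 4 genes are those with the largest rises among the called genes that have an ISRE core in their window, and the last 2 are those with the largest falls in the fit without the offset.
BST2, chr19:17405621-17405880, minus strand: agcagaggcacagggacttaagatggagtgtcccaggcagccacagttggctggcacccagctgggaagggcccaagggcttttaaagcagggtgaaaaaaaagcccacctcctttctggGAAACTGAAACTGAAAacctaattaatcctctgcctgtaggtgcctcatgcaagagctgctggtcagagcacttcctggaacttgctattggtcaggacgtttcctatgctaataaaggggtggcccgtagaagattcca
IFITM1, chr11:313790-314049, plus strand: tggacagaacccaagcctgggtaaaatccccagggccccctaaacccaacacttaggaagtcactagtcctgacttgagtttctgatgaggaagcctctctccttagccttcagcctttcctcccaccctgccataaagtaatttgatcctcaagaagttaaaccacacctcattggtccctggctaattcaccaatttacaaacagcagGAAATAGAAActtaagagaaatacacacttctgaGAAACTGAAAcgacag
IFI6, chr1:27672183-27672442, minus strand: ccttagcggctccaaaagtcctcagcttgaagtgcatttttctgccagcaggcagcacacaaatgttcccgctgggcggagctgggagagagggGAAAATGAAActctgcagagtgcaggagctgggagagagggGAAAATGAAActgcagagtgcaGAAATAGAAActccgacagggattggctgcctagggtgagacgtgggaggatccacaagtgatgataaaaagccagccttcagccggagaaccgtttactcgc
IFITM3, chr11:320851-321110, minus strand: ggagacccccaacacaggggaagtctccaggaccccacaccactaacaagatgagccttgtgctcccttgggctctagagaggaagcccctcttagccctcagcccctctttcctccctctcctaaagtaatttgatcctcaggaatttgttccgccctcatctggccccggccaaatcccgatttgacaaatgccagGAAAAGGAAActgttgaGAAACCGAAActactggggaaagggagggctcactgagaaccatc
SAMD9, chr7:93117970-93118229, minus strand: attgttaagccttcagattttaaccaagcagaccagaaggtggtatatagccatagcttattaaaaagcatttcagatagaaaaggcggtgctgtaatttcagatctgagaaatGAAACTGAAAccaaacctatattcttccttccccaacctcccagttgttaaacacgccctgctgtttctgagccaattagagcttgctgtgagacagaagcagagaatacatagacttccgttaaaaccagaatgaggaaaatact
IFIT5, chr10:89414318-89414577, plus strand: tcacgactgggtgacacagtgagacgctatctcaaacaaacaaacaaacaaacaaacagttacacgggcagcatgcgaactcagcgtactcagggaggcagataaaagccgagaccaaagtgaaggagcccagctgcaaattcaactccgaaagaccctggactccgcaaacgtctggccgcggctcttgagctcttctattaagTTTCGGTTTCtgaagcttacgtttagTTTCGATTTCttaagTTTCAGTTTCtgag
The first 4 genes were chosen to hold the core, so its presence there is not a result, while the last 2 were chosen without regard to it and also hold it. OAS1, with a rise of 1.34, has a window without the core and was passed over. BST2 and IFITM1 passed the read filter through their F133V libraries alone. BST2 has 2 overlapping cores, IFI6 has 3, and IFIT5, whose fold change was negative without the offset, also has 3.

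Most interferon-stimulated genes were higher in F133V cells. Of the 36 tested, 23 rose, 7 fell and 6 did not pass the test (edgeR quasi-likelihood test, Benjamini-Hochberg (BH) adjusted p under 0.05 over all tested genes). Of all tested genes 27.2% were called higher and 27.6% lower by the same rule, so the share of members called higher, 63.9%, lay above the background and the share called lower, 19.4%, below it. The median log2 fold change, F133V over wild-type, was 0.45 for the members and 0.02 for all tested genes. With the GC and length offset 25 members rose, 2 fell and 9 did not pass, against a background of 27.6% called higher and 24.5% called lower, and the member median was 0.42. The balance of the background depends on scaling: without the offset 4763 genes were called higher and 4841 lower, and with upper-quartile scaling 6462 and 3831. Upper-quartile scaling moved the median of all tested genes to 0.13 and that of the members to 0.56.

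The calls of the 2 fits differed most at the low end. A total of 20 members rose in both fits, and only PARP14 and DTX3L fell in both. The share of all tested genes called in both fits was not counted, so these joint counts have no background beside them. IFI27, IFI35 and UBE2L6 rose without the offset but did not pass with it. SAMD9, IFIT5, PARP9 and ZC3HAV1 fell without the offset but did not pass with it, and EIF2AK2 fell without it and rose with it. IFIT3, DDX60, HERC5 and SP110 rose with the offset alone, and HERC6 and SAMD9L passed in neither fit. In raw levels both F133V libraries stood above both wild-type libraries for 24 members, where 40.1% of all tested genes did so. They stood below for 9 members, where 37.8% of all tested genes did so, and the groups overlapped for IFIT3, DDX60 and HERC5. Without the offset 6 members were at least 2-fold higher, namely BST2, IFITM1, OASL, OAS2, OAS1 and IFI6, where 4.26% of all tested genes were. BST2 and IFITM1 were tested only through their F133V libraries, so their place in this count is no independent support. No member was at least 2-fold lower.

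**Figure D1:**
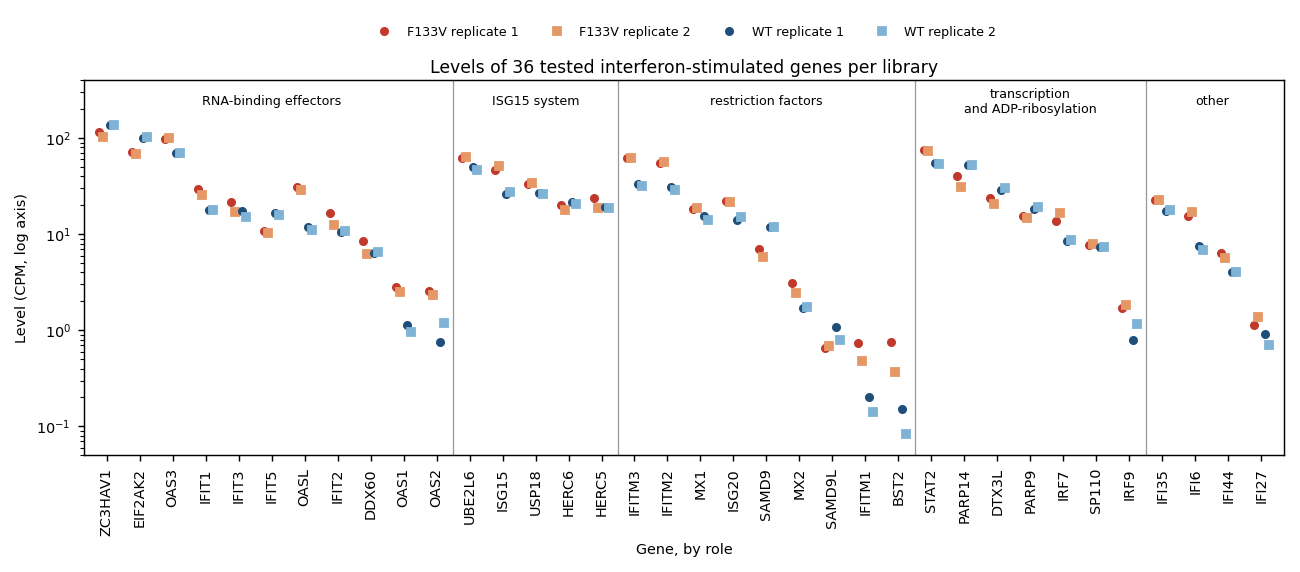
Levels of the 36 tested interferon-stimulated genes in each of the 4 libraries, in CPM on a log axis, grouped by role and ordered by wild-type level within a role. Each point is 1 library, red and orange for F133V and blue for wild-type; the F133V points of OASL sit at 30.9 and 28.8 CPM, above the wild-type points at 11.8 and 10.96 CPM, while those of SAMD9 sit below.

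The levels of these genes spanned a wide range in both genotypes. By mean CPM per kilobase of exon in F133V cells, ISG15 was the highest at 51.6 in F133V cells and 28.6 in wild-type cells. IFITM3 came next at 46.1 and 24.2 in F133V and wild-type cells, then IFITM2 at 36.4 and 19.3, UBE2L6 at 28.4 and 22.01, and IFI6 at 18.7 and 8.29. In wild-type cells the order differed, with UBE2L6 above IFITM2, and ZC3HAV1 at 16.6 and USP18 at 12.4 above IFI6. Also above IFI6 there were EIF2AK2 at 9.39, IFI35 at 8.94, STAT2 at 8.92 and OAS3 at 8.50. The lowest tested member on this scale was SAMD9L in F133V cells, at 0.0935 there and 0.130 in wild-type cells, and BST2 in wild-type cells, at 0.505 in F133V cells and 0.106 there. The 5 members below the filter had few reads in any library. IFI44L had 6 and 3 reads in F133V cells against 5 and 7 in wild-type cells, and XAF1, an antagonist of the apoptosis inhibitor XIAP, had 5 and 1 against 4 and 5. RSAD2, the radical enzyme viperin, had 9 and 1 reads in F133V cells against 4 and 1 in wild-type cells. Its neighbour CMPK2, a mitochondrial nucleotide kinase, had 16 and 6 reads in F133V cells against 4 and 5 in wild-type cells, and the ubiquitin ligase TRIM22 had 6 and 8 against 5 and 5. These 5 genes were not tested. RSAD2, XAF1 and IFI44L are counted among the classical interferon-induced genes, and they stood near 0 in both genotypes.

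All 4 genes of the oligoadenylate synthetase family rose in both fits. OAS1, OAS2 and OAS3 bind double-stranded RNA and make short oligoadenylates that switch on the nuclease RNase L. OASL has no synthase activity in humans and aids signalling by the RNA sensor RIG-I. OASL (ENSG00000135114.13, chromosome 12, 121019111 to 121039242) was at 30.9 and 28.8 CPM in F133V cells, against 11.8 and 10.96 CPM in wild-type cells. The F133V libraries were both more than 2-fold above the wild-type ones. OASL rose by 1.39 ± 0.086 (log2 fold change ± SE, edgeR BH-adjusted p = 2.07e-10), and by 1.28 with the offset (adjusted p = 8.18e-19). OAS1 was at 2.83 and 2.52 CPM in F133V cells, against 1.15 and 0.953 CPM in wild-type cells, and OAS2 at 2.59 and 2.35 CPM against 0.764 and 1.18 CPM. The genotypes did not overlap for either gene. OAS1 rose by 1.34 ± 0.19 (edgeR BH-adjusted p = 6.4e-06) and by 1.30 with the offset, and OAS2 by 1.36 ± 0.21 (adjusted p = 1.75e-05) and by 1.41. OAS3 was the most abundant of the family by CPM, at 98.9 and 99.2 in F133V cells against 70.8 and 69.5 in wild-type cells. Its rise was smaller, 0.50 ± 0.064 (edgeR BH-adjusted p = 1.5e-06), and 0.38 with the offset. OAS1, OAS3 and OAS2 lie side by side on chromosome 12, from 112906777 to 113011723 on GRCh38, on the same strand.

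The IFIT family, whose members bind foreign RNA directly or in complexes, was split. IFIT2, IFIT3, IFIT1 and IFIT5 lie on chromosome 10 from 89283694 to 89421001. IFIT1, which binds RNA caps lacking ribose methylation, was at 29.9 and 25.5 CPM in F133V cells against 18.01 and 18.05 CPM in wild-type cells. Both F133V libraries were higher, and IFIT1 rose by 0.62 ± 0.087 (edgeR BH-adjusted p = 4.6e-06), or 0.96 with the offset (adjusted p = 1.24e-16). IFIT2, a partner of IFIT1 and IFIT3, was at 16.7 and 12.4 CPM in F133V cells against 10.4 and 10.8 CPM in wild-type cells. IFIT2 rose by 0.46 ± 0.11 (edgeR BH-adjusted p = 0.00198) and by 0.74 with the offset. F133V replicate 1 was the high library: without it the IFIT2 fold change was 0.20 and no longer passed (adjusted p = 0.0589). IFIT3, which stabilises IFIT1, was at 21.6 and 17.1 CPM in F133V cells against 17.5 and 15.3 CPM in wild-type cells, so the genotypes overlapped. The IFIT3 fold change was 0.24 ± 0.10 without the offset and missed the threshold (edgeR BH-adjusted p = 0.055), and 0.40 with it, which passed (adjusted p = 2.39e-05). Without F133V replicate 1 the IFIT3 values were 0.026 (adjusted p = 0.80) and 0.22, and without F133V replicate 2 the value without the offset was 0.40 and passed (adjusted p = 4.02e-07). IFIT5 was at 10.9 and 10.4 CPM in F133V cells against 16.5 and 15.8 CPM in wild-type cells. Both F133V libraries were lower, and IFIT5 fell by 0.60 ± 0.090 (edgeR BH-adjusted p = 1.03e-05), but with the offset its fold change was 0.01 (adjusted p = 0.92). The transcript GC content of IFIT5 is 37.4%, and that of IFIT1 42.2%.

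Of the remaining RNA-binding effectors, EIF2AK2 and ZC3HAV1 were abundant and lower in raw level in F133V cells. EIF2AK2 encodes the kinase PKR, which stops translation when it binds double-stranded RNA. Its level was 71.1 and 67.8 CPM in F133V cells against 99.9 and 102.1 CPM in wild-type cells. EIF2AK2 fell by 0.54 ± 0.065 (edgeR BH-adjusted p = 6.08e-07), yet rose by 0.11 with the offset (adjusted p = 0.022), a value that did not pass without F133V replicate 2 (0.04), wild-type replicate 1 (0.11) or wild-type replicate 2 (0.12). The transcript GC content of EIF2AK2 is 38.7%. ZC3HAV1 encodes ZAP, which binds CpG-rich viral RNA, and was at 116.2 and 103.3 CPM in F133V cells against 136.3 and 137.9 CPM in wild-type cells. ZC3HAV1 fell by 0.32 ± 0.066 (edgeR BH-adjusted p = 0.000367), and its fold change was -0.07 with the offset (adjusted p = 0.127). Without F133V replicate 1 the offset value of ZC3HAV1 was -0.15 and passed (adjusted p = 0.000342). DDX60, a helicase of the same family as many RNA sensors, was at 8.50 and 6.18 CPM in F133V cells against 6.42 and 6.53 CPM in wild-type cells. The genotypes overlapped, and the DDX60 fold change was 0.18 ± 0.13 (edgeR BH-adjusted p = 0.245) without the offset and 0.75 with it (adjusted p = 1.04e-07). Without the offset the DDX60 fold change was -0.10 when F133V replicate 1 was left out, and 0.39, which passed, when F133V replicate 2 was. Among the 11 RNA-binding effectors 6 rose, 3 fell and 2 did not pass without the offset, and 9 rose, 0 fell and 2 did not pass with it.

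**Figure D2:**
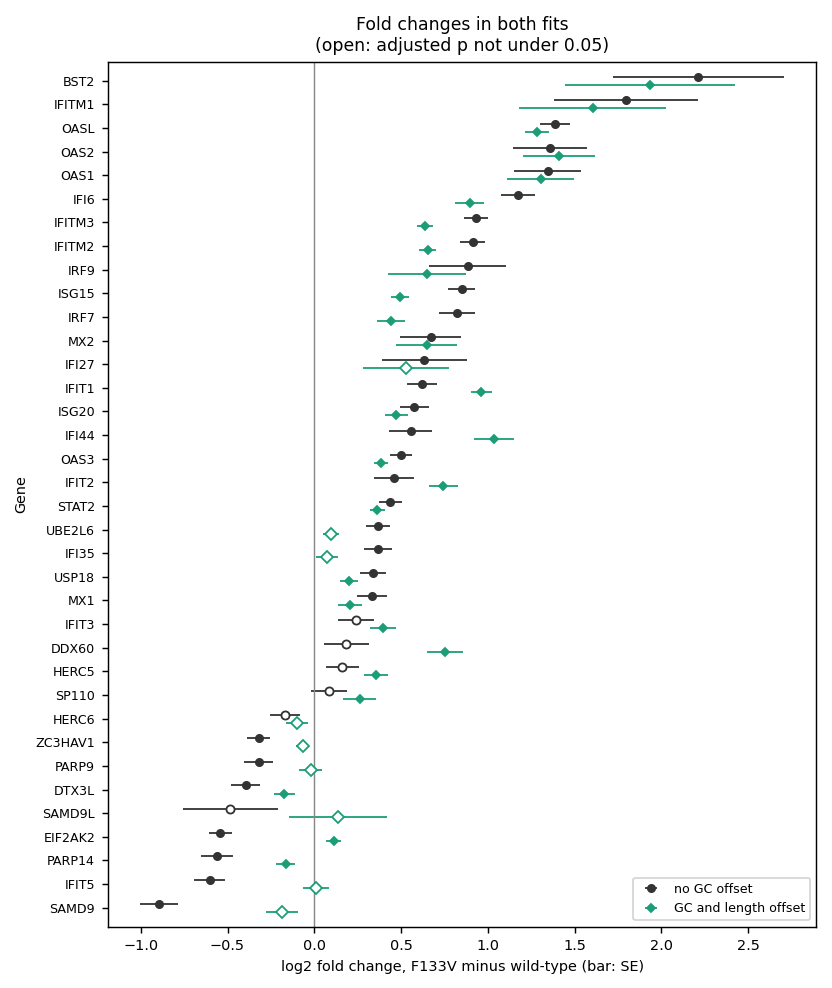
The log2 fold change, F133V minus wild-type, of each tested gene in both fits, with SE as bars. Circles are the fit without the offset and diamonds the fit with the GC and length offset; open symbols did not pass an adjusted p of 0.05. BST2 stands highest at 2.21 and 1.94, and the 7 genes that fell without the offset, SAMD9 lowest at -0.89, lie nearer 0 with it.

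Of ISG15 and 4 enzymes that attach or remove it, 3 rose and 2 did not pass, with or without the offset. ISG15, the ubiquitin-like modifier (ENSG00000187608.10, chromosome 1, 1001138 to 1014540), was at 46.1 and 51.0 CPM in F133V cells against 26.3 and 27.6 CPM in wild-type cells. The genotypes were well apart, and ISG15 rose by 0.85 ± 0.077 (edgeR BH-adjusted p = 1.58e-08) and by 0.50 with the offset (adjusted p = 9.51e-11). UBE2L6, its conjugating enzyme, was at 62.0 and 63.0 CPM in F133V cells against 49.8 and 46.9 CPM in wild-type cells. UBE2L6 rose by 0.37 ± 0.069 (edgeR BH-adjusted p = 0.00014), and its fold change was 0.10 with the offset, which did not pass (adjusted p = 0.0706), though without F133V replicate 2 it was 0.13 and did (adjusted p = 0.0101). Without wild-type replicate 2 the value without the offset, 0.32, also missed the threshold (adjusted p = 0.0551). HERC5, the main human ISG15 ligase, was at 23.6 and 18.8 CPM in F133V cells against 19.2 and 18.6 CPM in wild-type cells. The genotypes overlapped, with F133V replicate 1 the high library. The HERC5 fold change was 0.16 ± 0.096 (edgeR BH-adjusted p = 0.161), against 0.35 with the offset (adjusted p = 3.13e-05), and without F133V replicate 1 these were -0.04 and 0.18. Leaving out F133V replicate 2 instead gave 0.32 without the offset, which passed (adjusted p = 2.2e-05). USP18, which removes ISG15 and dampens the type I receptor, was at 32.9 and 33.9 CPM in F133V cells against 26.7 and 26.1 CPM in wild-type cells. USP18 rose by 0.34 ± 0.075 (edgeR BH-adjusted p = 0.000683) and by 0.20 with the offset (adjusted p = 0.00163), and missed the threshold without the offset when wild-type replicate 2 was left out (0.32, adjusted p = 0.0709). HERC6, the close relative of HERC5 that is the main ISG15 ligase in mice, passed in neither fit, at -0.17 ± 0.086 and -0.10. Without F133V replicate 1 the HERC6 values were -0.30 (edgeR BH-adjusted p = 0.000157) and -0.21 (adjusted p = 0.0101), and both passed as lower.

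Restriction factors held both the largest rises and the largest fall. The largest rises were in BST2 and IFITM1, which passed the read filter through F133V alone. The IFITM proteins block fusion of viruses with the cell and lie together on chromosome 11 from 307631 to 327537. IFITM3 was at 61.8 and 62.6 CPM in F133V cells against 33.4 and 31.8 CPM in wild-type cells. IFITM2 was at 55.5 and 56.8 CPM in F133V cells against 30.8 and 28.8 CPM in wild-type cells. In both genes the replicates of a genotype lay close together and the genotypes far apart. IFITM3 rose by 0.93 ± 0.071 (edgeR BH-adjusted p = 1.97e-09) and by 0.64 with the offset, and IFITM2 by 0.91 ± 0.073 (adjusted p = 3.46e-09) and by 0.65. IFITM1 was far lower, with 27 and 17 reads in F133V cells against 8 and 5 reads in wild-type cells. IFITM1 rose by 1.80 ± 0.41 (edgeR BH-adjusted p = 0.00101) and by 1.60 with the offset, a value that lost its call without F133V replicate 1 (1.19, adjusted p = 0.0796). The annotated exons of IFITM1 and IFITM2 share 351 bases on the same strand, 32.5% of those of IFITM1, and the 3 genes are similar in sequence, so single-gene counts are uncertain. An antisense RNA covers 21.3% of the IFITM3 exons, with 46 and 48 reads in F133V cells against 23 and 20 reads in wild-type cells. The strand setting of the counting is unknown here, so whether reads over both genes were left out of the IFITM3 counts is not known.

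BST2 encodes tetherin, which holds budding virus particles at the cell surface. It had 28 and 13 reads in F133V cells against 6 and 3 reads in wild-type cells, or 0.763 and 0.368 CPM against 0.153 and 0.0841 CPM. BST2 rose by 2.21 ± 0.49 (edgeR BH-adjusted p = 0.00077) and by 1.94 with the offset, the largest of the members in both fits but also the least precise. Without F133V replicate 1 the offset value was 1.23 and did not pass (adjusted p = 0.131). ISG20, an exonuclease that degrades RNA, was at 21.99 and 21.6 CPM in F133V cells against 14.1 and 15.1 CPM in wild-type cells. ISG20 rose by 0.58 ± 0.084 (edgeR BH-adjusted p = 7.49e-06) and by 0.47 with the offset. MX1 and MX2 are dynamin-like GTPases that trap viral nucleoproteins and retroviral cores, and they lie side by side on chromosome 21. MX1 was at 18.4 and 18.9 CPM in F133V cells against 15.6 and 14.1 CPM in wild-type cells, and MX2 at 3.08 and 2.44 CPM against 1.71 and 1.77 CPM. Neither gene overlapped between genotypes. MX1 rose by 0.33 ± 0.087 (edgeR BH-adjusted p = 0.00303) and by 0.21 with the offset. Without wild-type replicate 2 the MX1 value was 0.26 without the offset (adjusted p = 0.176) and 0.13 with it (adjusted p = 0.232), and without F133V replicate 1 the offset value, 0.16, also missed the threshold. MX2 rose by 0.67 ± 0.18 (edgeR BH-adjusted p = 0.0032) and by 0.65 with the offset, and lost its call in both fits without F133V replicate 1 (0.46 and 0.43).

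SAMD9 and SAMD9L, neighbouring genes on chromosome 7 whose products restrict poxviruses, went the other way in raw level. SAMD9 was at 7.08 and 5.72 CPM in F133V cells against 11.997 and 11.9 CPM in wild-type cells. Both F133V libraries lay below both wild-type libraries, and SAMD9 fell by 0.89 ± 0.11 (edgeR BH-adjusted p = 8.18e-07). With the offset its fold change was -0.18 and did not pass (adjusted p = 0.0899), but without F133V replicate 1 it was -0.29 and passed (adjusted p = 0.0317). Its transcript GC content of 36.05% is the lowest of the tested members. SAMD9L passed in neither fit, at -0.48 ± 0.27 and 0.14. Of the 9 tested restriction factors 7 rose, 1 fell and 1 did not pass without the offset, and the same number, 7, rose with it, with 0 lower.

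Without the offset STAT2, IRF9 and IRF7, the 3 members that are transcription factors of the pathway, rose and the 3 ADP-ribosylation genes fell. Other factors of the pathway, IRF1, IRF2 and IRF3 among them, are counted below with the receptor and signalling genes. STAT2 was at 74.7 and 73.0 CPM in F133V cells against 54.9 and 54.1 CPM in wild-type cells. STAT2 rose by 0.44 ± 0.067 (edgeR BH-adjusted p = 1.28e-05) and by 0.36 with the offset (adjusted p = 2.34e-09). IRF9, its DNA-binding partner, was at 1.72 and 1.84 CPM in F133V cells against 0.790 and 1.15 CPM in wild-type cells. IRF9 rose by 0.88 ± 0.22 (edgeR BH-adjusted p = 0.00217) and by 0.65 with the offset. Wild-type replicate 1 was the low library, and without it neither value passed (0.63 and 0.38, adjusted p = 0.072 and 0.277). A second annotated gene on the same strand, AL136295.5, shares 1838 bases with IRF9, 48.4% of the IRF9 exon bases. The longest IRF9 transcript is also 1838 bases long. Reads over more than 1 gene stayed out of the counts, so the level and fold change given need not be those of the whole IRF9 mRNA. IRF7, which amplifies interferon production, was at 13.7 and 16.7 CPM in F133V cells against 8.58 and 8.60 CPM in wild-type cells. IRF7 rose by 0.82 ± 0.10 (edgeR BH-adjusted p = 1.23e-06) and by 0.44 with the offset, and its transcript GC content of 66.8% is the highest of the tested members.

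PARP9 and DTX3L form a complex that joins ADP-ribosylation to ubiquitylation, and PARP14 is a mono-ADP-ribosyltransferase beside them on chromosome 3, from 122527924 to 122730840. PARP14 was at 39.9 and 30.8 CPM in F133V cells against 52.0 and 52.5 CPM in wild-type cells. DTX3L was at 23.9 and 20.8 CPM in F133V cells against 28.5 and 30.4 CPM in wild-type cells. PARP9 was at 15.3 and 14.7 CPM in F133V cells against 18.2 and 19.3 CPM in wild-type cells. All 3 genes were lower in both F133V libraries, and F133V replicate 2 was the lower of the pair each time. PARP14 fell by 0.56 ± 0.091 (edgeR BH-adjusted p = 2.68e-05) and by 0.17 with the offset (adjusted p = 0.00996). Its offset value was -0.34 without F133V replicate 1 and -0.06, which did not pass, without F133V replicate 2. DTX3L fell by 0.40 ± 0.084 (edgeR BH-adjusted p = 0.000463) and by 0.17 with the offset (adjusted p = 0.0123). The DTX3L offset value was -0.27 without F133V replicate 1, and did not pass without F133V replicate 2 (-0.12) or wild-type replicate 2 (-0.13). PARP9 fell by 0.32 ± 0.085 (edgeR BH-adjusted p = 0.00325), with a fold change of -0.02 with the offset (adjusted p = 0.81), and missed the threshold without the offset when wild-type replicate 2 was left out (-0.29, adjusted p = 0.115). PARP9 and DTX3L overlap by 217 exon bases on opposite strands, 3.70% of the DTX3L exons. SP110, a nuclear body protein, was at 7.79 and 7.85 CPM in F133V cells against 7.41 and 7.34 CPM in wild-type cells. Its fold change was 0.08 ± 0.10 (edgeR BH-adjusted p = 0.52), and 0.26 with the offset (adjusted p = 0.0208), which did not pass when F133V replicate 2, wild-type replicate 1 or wild-type replicate 2 was left out.

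Of the genes with other or less defined roles, the 4 tested rose without the offset and 2 of them rose with it. IFI6, a small membrane protein that delays apoptosis, was at 15.5 and 16.9 CPM in F133V cells against 7.54 and 6.81 CPM in wild-type cells. Both F133V libraries were more than 2-fold above both wild-type libraries, and IFI6 rose by 1.17 ± 0.099 (edgeR BH-adjusted p = 6.49e-09) and by 0.89 with the offset. IFI44 was at 6.35 and 5.61 CPM in F133V cells against 4.08 and 4.06 CPM in wild-type cells. IFI44 rose by 0.56 ± 0.13 (edgeR BH-adjusted p = 0.000825) and by 1.04 with the offset (adjusted p = 7.64e-10), its transcript GC content being 39.1%. IFI35, a partner of the interferon-induced protein NMI, was at 22.5 and 22.9 CPM in F133V cells against 17.6 and 17.7 CPM in wild-type cells. The replicates of each genotype were close, and IFI35 rose by 0.37 ± 0.080 (edgeR BH-adjusted p = 0.000649), but with the offset its fold change was 0.07 (adjusted p = 0.352). IFI27, a small mitochondrial protein, was at 1.14 and 1.39 CPM in F133V cells against 0.917 and 0.701 CPM in wild-type cells. IFI27 rose by 0.63 ± 0.24 (edgeR BH-adjusted p = 0.0334), its fold change with the offset was 0.53 (adjusted p = 0.0698), and the call was also lost without F133V replicate 2 (0.49) or wild-type replicate 2 (0.46). In bulk RNA a larger share of cells expressing a gene and more RNA per cell cannot be told apart.

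The members' fold changes followed GC content as those of all genes did. The 23 members called higher without the offset had transcript GC contents of 39.1% to 66.8%, with a median of 52.5%. The 7 called lower ranged from 36.05% to 44.2%, with a median of 42.4%, and the median of all tested genes was 48.8%. Over the 36 tested members the rank correlation of GC content with fold change was 0.68 without the offset and 0.30 with it. The same correlation was 0.49 with the difference between F133V replicates 2 and 1 and -0.15 with that between wild-type replicates 2 and 1. All 17 members above the median GC content of all tested genes rose without the offset, where 45.3% of all tested genes above it did, and 14 of them rose with it, where 26.3% did. Of the 19 members at or below that median 6 rose and 7 fell without the offset, against 9.45% and 50.5% of all such genes. With the offset 11 of the 19 rose and 2 fell, against 28.9% and 25.4%. These correlations share the 4 libraries with the fold changes and describe them only.

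**Figure D3:**
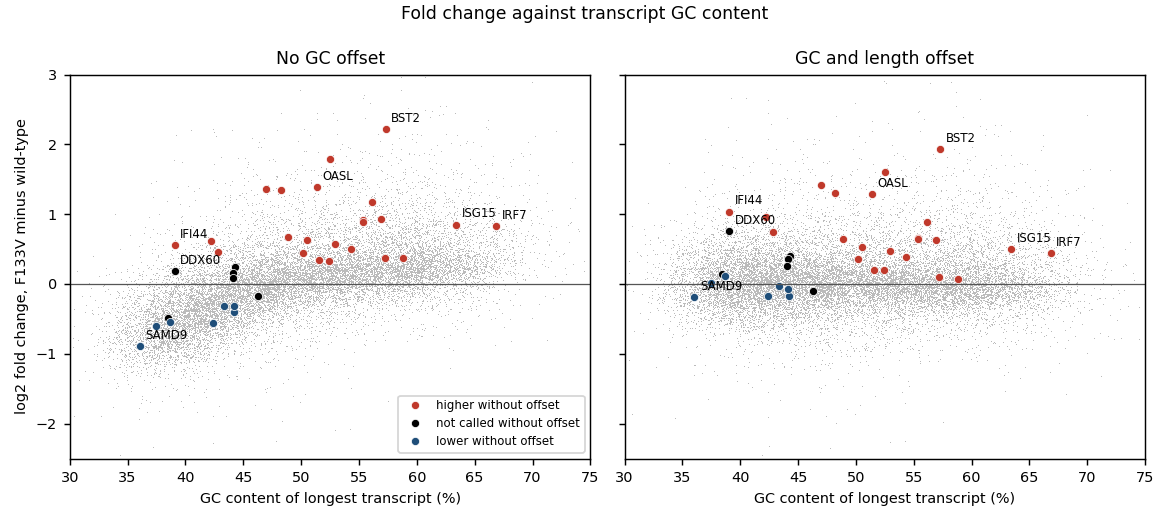
The log2 fold change, F133V minus wild-type, against the GC content of the longest transcript in percent, without the offset on the left and with it on the right. Grey dots are all tested genes with values inside the axes, and coloured points are the members, coloured by their call without the offset. On the left the grey cloud slopes upward and the members called lower lie in its low-GC end; on the right the cloud is level, and the members' median is 0.42.

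The ISRE core was common in the members' promoters, in genes that rose and in genes that fell. Windows of 300 bases, from 250 before to 50 after each annotated start, were found in RefSeq for 33 of the 41 genes. The core GAAANNGAAA, on either strand, was in a window of 22 of the 33 genes, or 66.7%, against 4.38% of all 27305 genes with a window. The GAS core TTCNNNGAA, its own reverse complement, was in a window of 11 of the 33 genes, or 33.3%, against 9.38% of all genes. Of 12 distinct GAS cores in the members' windows 4 overlap an ISRE core. By call without the offset, the ISRE core was in 11 of 16 genes that rose, 6 of 7 that fell, 3 of 6 that did not pass and 2 of 4 that were not tested. These shares describe the list, a match is not a used site, and the 8 genes with no window in the table, OASL and OAS2 among them, were not searched.

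**Figure D4:**
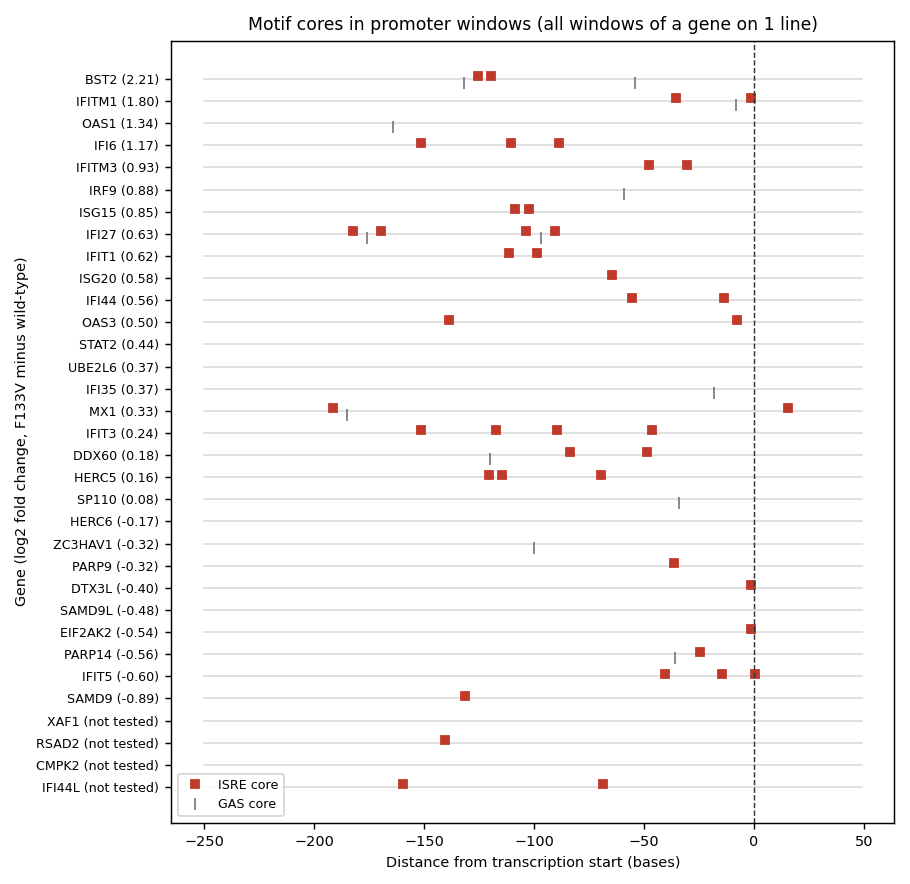
Positions of ISRE cores (red squares) and GAS cores (grey ticks) from the transcription start in bases, for the 33 interferon-stimulated genes with a promoter window, ordered by log2 fold change from BST2 at 2.21 to SAMD9 at -0.89, with genes not tested below. All windows of a gene share a line, so a core in overlapping windows appears more than once; cores lie in windows of genes at both ends.

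Other genes of the interferon system were read from lists to set the members in context. Of the 22 interferon ligand genes 19 had 0 reads in every library, where 3 reads would be 0.0764 to 0.0850 CPM. Reads with several alignments were not counted, so 0 reads in ligand genes of similar sequence, such as the IFNA genes, need not mean no expression. One ligand, IFNE, was tested, and its fold change of -0.89 ± 0.39 did not pass (edgeR BH-adjusted p = 0.0615). Of the 23 receptor and signalling genes, all tested, 8 rose and 7 fell without the offset, with a median of 0.16, and 9 rose and 4 fell with it, with a median of 0.07. SOCS3, a feedback inhibitor of JAK kinases, was at 52.5 and 57.3 CPM in F133V cells against 28.4 and 25.7 CPM in wild-type cells, and rose by 1.02 ± 0.078 (edgeR BH-adjusted p = 2.11e-09) and by 0.75 with the offset. The type I receptor chain IFNAR1 was at 93.1 and 82.7 CPM in F133V cells against 125.2 and 125.9 CPM in wild-type cells, and fell by 0.51 ± 0.067 (edgeR BH-adjusted p = 1.92e-06) and by 0.15 with the offset. PTPN11, a tyrosine phosphatase of many signalling pathways, was at 263.4 and 227.2 CPM in F133V cells against 341.9 and 346.3 CPM in wild-type cells. PTPN11 fell by 0.49 ± 0.065 (edgeR BH-adjusted p = 2.5e-06) and by 0.12 with the offset, which was 0.20 in size without F133V replicate 1, 0.08 without F133V replicate 2, and did not pass without wild-type replicate 2.

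Among 71 tested genes of a wider interferon-induced list that holds none of the 41, 33 rose and 15 fell without the offset, with a median of 0.13, and 27 rose and 11 fell with it, with a median of 0.07. TYMP, thymidine phosphorylase, was at 71.7 and 79.9 CPM in F133V cells against 44.9 and 44.2 CPM in wild-type cells, and rose by 0.77 ± 0.072 (edgeR BH-adjusted p = 2.6e-08) and by 0.47 with the offset. PROCR, the endothelial protein C receptor, was at 138.9 and 144.9 CPM in F133V cells against 94.0 and 93.0 CPM in wild-type cells, and rose by 0.60 ± 0.062 (edgeR BH-adjusted p = 8.27e-08) and by 0.43 with the offset. PNPT1, a mitochondrial RNA-degrading enzyme, was at 70.0 and 59.8 CPM in F133V cells against 106.3 and 104.6 CPM in wild-type cells, and fell by 0.70 ± 0.073 (edgeR BH-adjusted p = 9.87e-08) and by 0.27 with the offset. Of 13 tested genes induced mainly by interferon gamma, 9 rose and 2 fell without the offset, with a median of 0.81, and 9 rose and 0 fell with it, with a median of 0.67. The same 9 rose in both fits: CIITA, CD74, HLA-DRA, HLA-DMA and HLA-DMB of class II antigen presentation, and GBP2, GBP4, IRF8 and ICAM1. GBP1 (-0.32) and CD274 (-0.55) fell without the offset, and IRF1 and SOCS1 passed in neither fit. CXCL9, CXCL10, CXCL11, IDO1, GBP5 and IFI30 had too few reads to be tested. HLA-DRA, a class II antigen-presenting chain, was at 19.97 and 18.1 CPM in F133V cells against 5.22 and 5.997 CPM in wild-type cells, and CIITA, which switches class II genes on, at 14.7 and 14.0 CPM against 4.84 and 4.15 CPM. Both were more than 2-fold higher in F133V cells with no overlap, rising by 1.76 ± 0.10 and 1.67 ± 0.11 (edgeR BH-adjusted p = 1.2e-10 and 3.18e-10), and by 1.74 and 1.65 with the offset. CD74, the invariant chain of class II, was at 95.3 and 95.2 CPM in F133V cells against 36.4 and 40.5 CPM in wild-type cells, and rose by 1.31 ± 0.071 (edgeR BH-adjusted p = 4.59e-11) and by 1.02 with the offset. Without the offset 34.8% of the receptor and signalling genes were called higher and 30.4% lower, near the background of 27.2% and 27.6%. The shares were 46.5% and 21.1% in the wider list, and 69.2% and 15.4% in the interferon gamma list. With the offset the background was 27.6% higher and 24.5% lower. The shares were then 39.1% and 17.4% for receptor and signalling genes, 38.0% and 15.5% for the wider list, and 69.2% and 0% for the interferon gamma list. No difference between lists was tested. The lists are not separate, since 6 of the 13 tested genes of the interferon gamma list are counted in another: GBP1, GBP2 and GBP4 in the wider list, and IRF1, IRF8 and SOCS1 among the receptor and signalling genes.

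**Figure D5:**
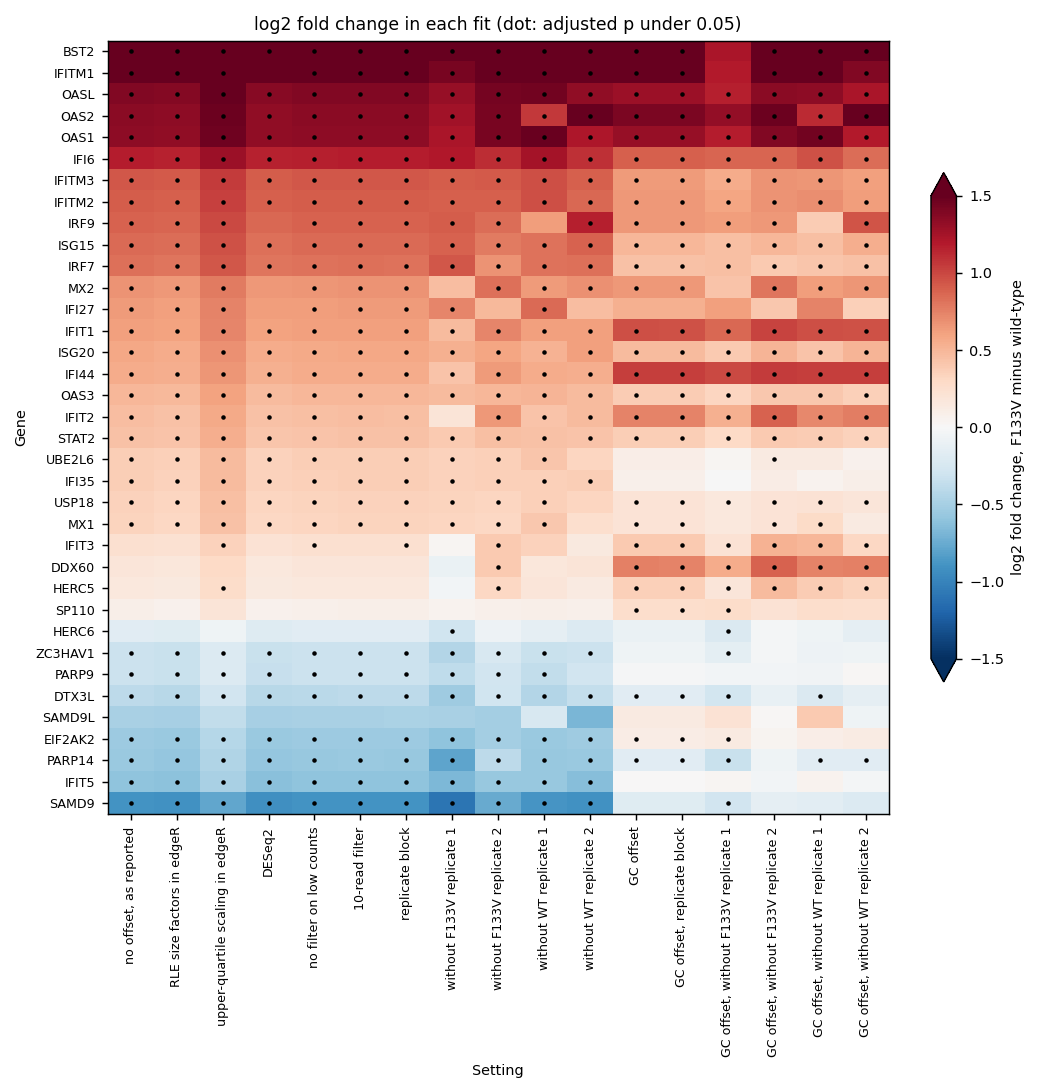
The log2 fold change, F133V minus wild-type, of the 36 tested interferon-stimulated genes (rows) in each fit (columns), red for higher in F133V and blue for lower, with colours saturated beyond 1.5 in size. A dot marks an adjusted p under 0.05. OASL and IFI6, near the top, are dotted in every column, while BST2 and IFITM1 above them are not. The blue genes at the bottom lose colour or turn in the 6 columns with the GC offset.

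Across the 16 alternative fits 13 members that rose kept their direction and their call: OASL, OAS1, OAS2, OAS3, IFI6, IFI44, IFIT1, IFITM2, IFITM3, ISG15, ISG20, STAT2 and IRF7. They include members of every role. How many of all tested genes kept a call across these fits was not counted. Neither this count nor the next therefore sets the members apart from other genes. None of the 7 members that fell kept both in all 16, whereas 6 of the 7 did so in the 10 fits without the offset, PARP9 being the exception.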

How the data were processed

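Total RNA from DU145 cells, 2 libraries per genotype, was sequenced as single reads of 75 bases, per the labels' protocols. The values the authors deposited are raw counts of reads in genes. TopHat2 2.0.10, HTSeq 0.6.0 and the build hg38 are named in the submitters' processing notes. Annotation release, library kit and strand setting were not given in these sources. Reads over no gene (6.12% to 6.53% of each table), with several alignments (13.6% to 16.6%) or over more than 1 gene (3.50% to 3.73%) stayed out of library sizes and tests.

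The whole table was fitted in R 4.3.3 with edgeR 4.0.16 (filterByExpr defaults, TMM, two-sided quasi-likelihood F-test, BH adjustment over all tested genes, threshold 0.05, 2 residual degrees of freedom). Levels are CPM on TMM-scaled library sizes, and the SE is the fold change over the square root of F. The GC and length offset came from smooths fitted with mgcv 1.9.3 (basis dimension 8, genes with mean log2 CPM above 2), on the longest GENCODE 29 transcript. The biological coefficient of variation was 4.64% without and 2.46% with the offset. The chi-square per degree of freedom between replicates was 8.31 in F133V and 1.70 in wild-type cells, above sampling noise, so all 4 libraries were counted. The test was checked on simulated counts with far fewer changed genes and an even spread, unlike these data. That check does not give the error rate of the calls here. Alternatives were RLE and upper-quartile scaling, DESeq2 1.42.0, other filters, the replicate block, the offset, and leaving out each library.

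The members, the other lists and the GC offset were chosen with earlier results of these data known. All members are accounted for. From each other list the 3 called genes of lowest adjusted p are named. Promoters come from RefSeq on GRCh38.p14. One gene of the pathway is not reported here.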

Additional observations from a re-analysis of the deposited data

How the results depend on the processing

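RLE scaling (23 higher, 7 lower), upper-quartile scaling (25 and 7), no filter on low counts (24 and 7), a 10-read filter (23 and 7) and DESeq2 (19 and 7) left the counts of called members within 1.5 times of 23 and 7. DESeq2 called 2954 of all genes higher and did not call MX2 (DESeq2 adjusted p = 0.0942), IFI27 (0.302), IFITM1 (0.0557) and IRF9 (0.0822). Upper-quartile scaling gave a member median of 0.56. The replicate block gave 24 higher and 7 lower, IFIT3 being gained (edgeR BH-adjusted p = 0.0332). The replicate numbers share nothing stated in the labels, and deviations of same-numbered libraries had a correlation of -0.03 over 17539 genes, so they were not treated as pairs. Members called lower numbered 2 with the GC and length offset and 2 with the offset and the replicate block.

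Leaving out each library in turn gave 19 to 26 members higher and 6 to 8 lower, medians of 0.37 to 0.49, and 2786 to 5225 of all genes higher and 3551 to 5631 lower. All genes called higher were 2819 without wild-type replicate 1 and 2786 without wild-type replicate 2. With the offset, leaving out each library gave 21 to 25 members higher, 0 to 5 lower and medians of 0.36 to 0.47; the 0 came without F133V replicate 2 and the 5 without F133V replicate 1.

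Fold changes that changed sign were as follows. With the offset, IFIT5 was at 0.011, SAMD9L at 0.14 and EIF2AK2 at 0.11, and with the offset and the block at 0.011, 0.13 and 0.11. Without F133V replicate 1, DDX60 was at -0.10 and HERC5 at -0.044, the ends of leave-one-out ranges that reached 0.39 and 0.32. With the offset and without F133V replicate 1, IFIT5 was at 0.031, IFI35 at -0.0062, SAMD9L at 0.22 and EIF2AK2 at 0.13. With the offset and without F133V replicate 2, SAMD9L was at 0.014 and EIF2AK2 at 0.038. With the offset and without wild-type replicate 1, IFIT5 was at 0.055, SAMD9L at 0.40 and EIF2AK2 at 0.11, and without wild-type replicate 2 PARP9 was at 0.012 and EIF2AK2 at 0.12. The cause was not tested, beyond the offset's own construction on GC content. Low counts limit BST2, IFITM1 and the 5 untested members most.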
